A study of Mus musculus with 6 samples.

Results

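Voltage-gated sodium, calcium and potassium channels, together with inwardly rectifying, calcium-activated, tandem-pore and ATP-sensitive potassium channels, were examined in cultured mouse myoblasts after 4 days of transforming growth factor beta (TGFb) and in untreated myoblasts. The genes were taken by name from the array annotation, as every probe named Kcna to Kcnv, Scn with a number, or Cacna, Cacnb or Cacng. Cacna1s and Cacng1 were left out, and the sulfonylurea receptor genes Abcc8 and Abcc9 were added. This gave 135 genes on 196 probes, out of 36499 gene names on the array. The rule used no measured value.

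The treated group held 3 arrays of primary myoblasts exposed to TGFb for 4 days, and the other group held 3 arrays of the same kind of cells without TGFb. Cells of both groups came from skeletal muscle of male C57BL/6 mice aged 3 months, with no genetic change named in the labels, and were sorted by flow cytometry before culture in serum-containing medium. The sources used here name neither the sort markers nor the TGFb dose. On every array, 8 of 9 myoblast marker genes were well above background, with Myf5 as the exception.

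Ion channels set the membrane potential and carry the currents of excitable cells. In skeletal muscle, sodium channels carry the action potential, the calcium channel complex of the transverse tubule senses it, and potassium channels return the membrane to rest. In human myoblasts, potassium channels such as KCNH1 and KCNJ2 hyperpolarise the membrane before fusion, and a T-type calcium channel lets calcium in at those voltages. ATP-sensitive potassium channels join a pore subunit (Kcnj8 or Kcnj11) to a sulfonylurea receptor (Abcc8 or Abcc9) and open when cellular ATP is low.

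Values are log2 of the processed intensity relative to the array's own 75th percentile, so 0 is that percentile, and levels are not compared between genes. The 75th percentile ranged from 879.2 to 1578 intensity units across arrays, and the share of probes well above background from 50.62% to 55.77%. TGFb 1, untreated 1 and untreated 2 were scanned on one day, called day 1 here, and TGFb 2, TGFb 3 and untreated 3 on another, day 2. Correlations across genes were 0.9699 to 0.9769 for a TGFb and an untreated array of one day, and 0.919 to 0.9289 for 2 arrays of a group from separate days. Calls are therefore counted in a fit with group as the only term and in one with scan day added, called the scan-day fit. The scanner file names give untreated 1 and untreated 2 the same number, and these arrays correlated at 0.9955. With those arrays averaged as 1 sample, limma without scan day called no channel gene (14 at an unadjusted p under 0.05). With scan day it called 6, and over all genes 0 without scan day and 650 with it.

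Most of the channel repertoire was at or below the detection limit. A gene was tested where some probe passed the well-above-background flag on 3 or more of the 6 arrays, which held for 60 genes. Of the 75 others, 51 were not well above background on any array, and 24 were so on 1 or 2 arrays. The genes not tested included Kcnj2 and Kcnh1, whose human counterparts act before fusion, Kcnj8, Cacna1c, the pore of the cardiac L-type channel, and Scn4b, a sodium channel beta subunit. They also included the potassium channel genes Kcna3 and Kcnd3 and the accessory subunit genes Kcne3 and Kcnab2. By class, 18 of 40 voltage-gated potassium channel genes, 4 of 15 inward rectifiers, 6 of 14 tandem-pore channels and 6 of 10 sodium channel pore genes were tested. All 4 calcium channel beta subunits and both sulfonylurea receptors were tested. The flag was set on all 6 arrays for 45 of the 60 tested genes.

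Both sulfonylurea receptor genes and the sodium channel gene Scn10a were lower after TGFb by more than 4-fold, and the calcium channel subunit gene Cacnb2 was higher. These 4 genes, 3 lower and 1 higher, were the channel genes past an adjusted p of 0.05 with group as the only term, where 0.697% of all 21960 tested genes rose, 0.706% fell and 1.4% were called in either direction. In the scan-day fit, 6 channel genes rose and 16 fell, where 4.6% and 5.61% of all genes did and 10.2% were called in either direction. The 4 genes of the first fit were among these 22, and the other 18 had limma adjusted p-values of 0.0732 (Kcnn4) to 0.979 (Kcnab1) with group as the only term. Each of the 22 had the same sign within day 1 and within day 2, a property that their choice on the same arrays favours. In these bulk samples, fewer cells of a type and less RNA per cell cannot be told apart.

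**Figure D1:**
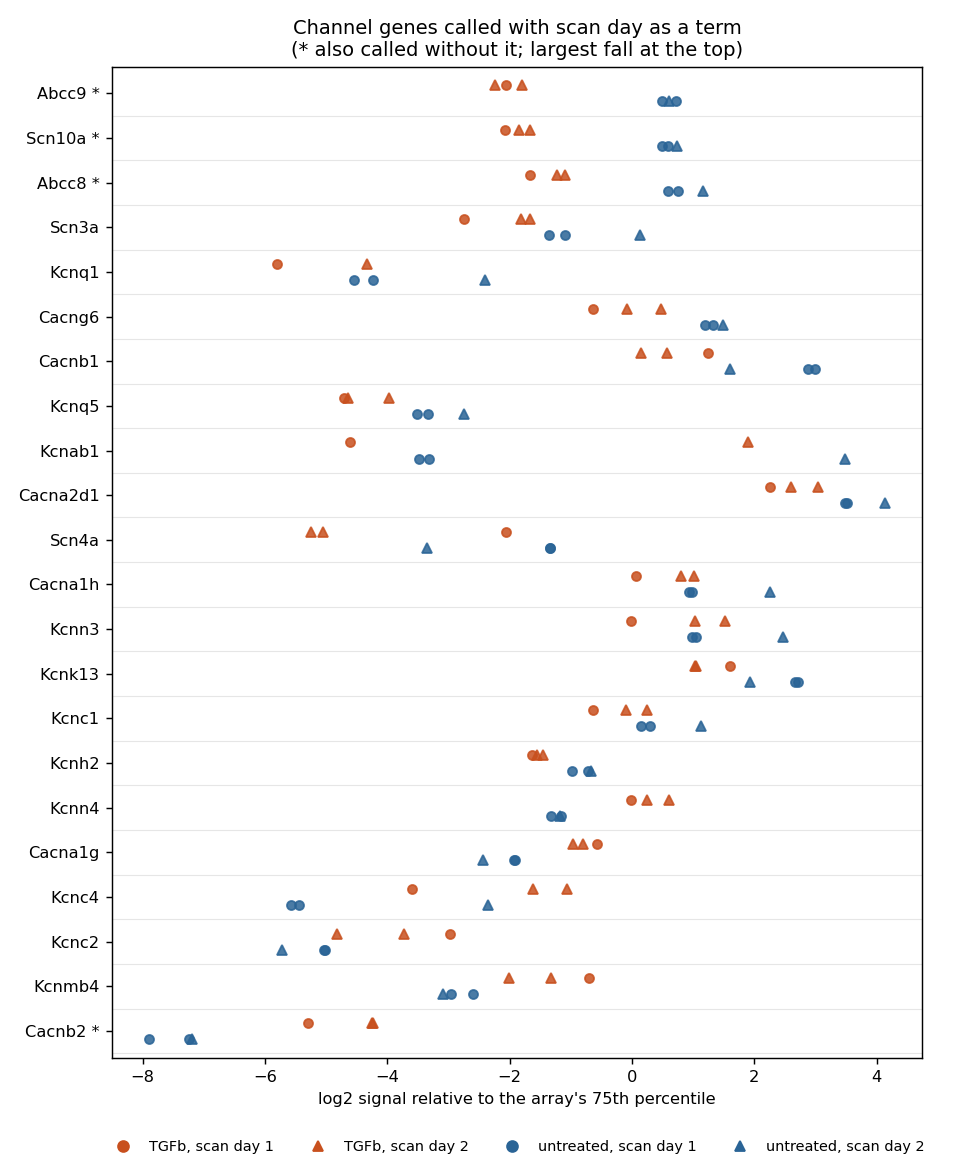
Log2 signal relative to the array's 75th percentile for the 22 channel genes called in the scan-day fit, 1 point per array, TGFb above untreated in each row, with circles for scan day 1 and triangles for scan day 2. Abcc9, Scn10a and Abcc8 show 3 TGFb arrays below all 3 untreated arrays with a wide gap, while Kcnab1 and Scn4a are spread by scan day within each group. For Kcnq1 and Kcnab1 the TGFb 3 spot was left out, and Cacnb2 was not well above background on any untreated array.

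Abcc9 encodes a sulfonylurea receptor of muscle and vascular ATP-sensitive channels. It had values of -2.06, -2.24 and -1.79 on the TGFb arrays, against 0.49, 0.71 and 0.60 on the untreated arrays. All TGFb arrays lay far below all untreated arrays, and neither group spread by scan day. Abcc9 fell by 2.63 ± 0.26 on the log2 scale (SE, n = 3 each; limma adjusted p = 0.015), which is 6.20-fold lower, and by 2.64 ± 0.19 in the scan-day fit (adjusted p = 0.00266). Its only probe lies at chr6:142536920-142536979 (mm9), so the call rests on 1 probe.

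Abcc8 encodes the sulfonylurea receptor best known from pancreatic beta cells and neurons. It had values of -1.66, -1.23 and -1.09 on the TGFb arrays, against 0.76, 0.60 and 1.17 on the untreated arrays. The groups were again apart on every array. Abcc8 fell by 2.17 ± 0.30 (SE, n = 3 each; limma adjusted p = 0.0335) and by 2.33 ± 0.14 in the scan-day fit (adjusted p = 0.00196). Its second probe gave a difference of -2.11, but the probes overlap by 47 bases (chr7:53359908-53359967 and chr7:53359921-53359980, mm9) and so read nearly the same stretch of the transcript.

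The pore subunits that these receptors join lie next to them in the genome. Kcnj11 has its probe 6.73 kb from that of Abcc8, and Kcnj8 has its probe 23.4 kb from that of Abcc9 (mm9). Kcnj11 had -5.97, -7.38 and -5.64 on the TGFb arrays, where it was not well above background, against -3.83, -3.58 and -4.88 on the untreated arrays, where it was well above background on all 3. The groups did not overlap. The TGFb arrays bound the difference at 2.27-fold or more lower (group means -6.33 and -4.10). Its limma adjusted p was 0.189, and 0.0745 in the scan-day fit. Kcnj11 was not called in either fit to the scanner values. In the authors' deposited table, with group as the only term, Kcnj11 was 0.79 lower on the log2 scale. It was called there (limma adjusted p = 0.0208). That difference is smaller than the 2.27-fold bound, which therefore holds only for the processing used here. The second Kcnj11 probe and the single Kcnj8 probe were not well above background on any array.

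**Figure D2:**
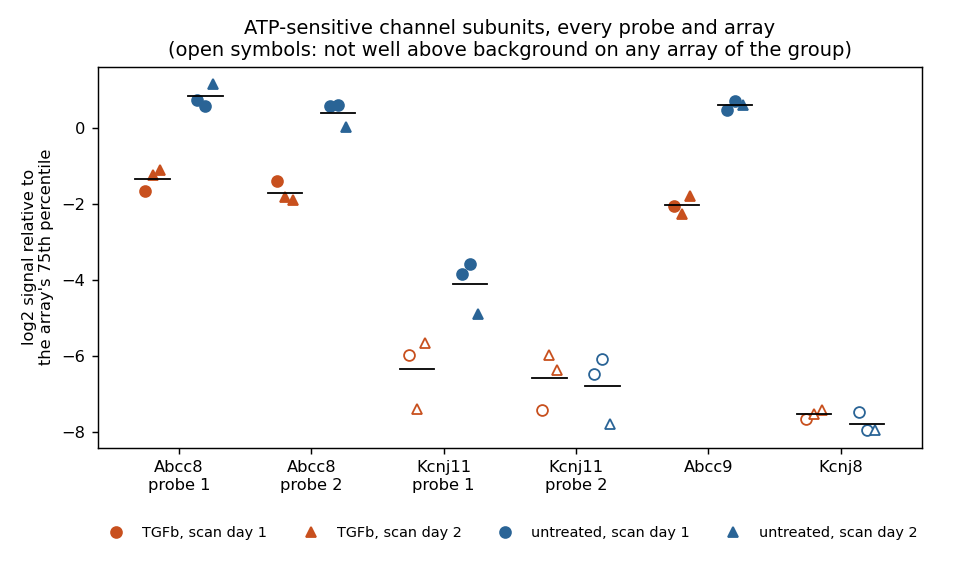
Log2 signal relative to the array's 75th percentile for every probe of the 4 ATP-sensitive channel subunit genes, TGFb left of untreated, 1 point per array and a line at the mean of 3 arrays. Filled points are groups well above background on all 3 arrays, and open points are groups not well above background on any. Abcc8 and Abcc9 show a gap of more than 1 log2 unit between the groups, and for Kcnj11 only probe 1 in untreated cells is filled.

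Scn10a, a sodium channel pore gene known from pain-sensing neurons, had -2.07, -1.84 and -1.66 on the TGFb arrays, against 0.60, 0.49 and 0.73 on the untreated arrays. No TGFb array came near an untreated one, on the 1 probe that the gene has. Scn10a fell by 2.47 ± 0.25 (SE, n = 3 each; limma adjusted p = 0.0165) and by 2.55 ± 0.14 in the scan-day fit (adjusted p = 0.00187). The neuron markers Syt1 and Nefl were not well above background on any array. Tubb3 and Stmn2, other neuron markers, rose in the scan-day fit by 2.81 and 1.50. The summed level of the 6 neuron markers (log2 of the sum of their relative signals) was 5.03 to 7.36 on the TGFb arrays and 4.17 to 6.19 on the untreated arrays. Of these markers, Snap25 had 3.57, 6.41 and 6.53 on the TGFb arrays, against 3.55, 3.46 and 5.67 on the untreated arrays. Its high arrays are those of day 2 in both groups, so the sum follows scan day as well as group. The part of other cell types in the channel values was not tested.

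Cacnb2 encodes a calcium channel beta subunit that brings L-type channels to the membrane, best known in heart. It had -5.29, -4.26 and -4.24 on the TGFb arrays, all well above background, against -7.25, -7.89 and -7.18 on the untreated arrays, none of which was. In these scanner values, Cacnb2 was at least 1.96-fold higher after TGFb (group means -4.60 and -7.44; limma adjusted p = 0.0366, and 0.00579 in the scan-day fit). Its second probe was not well above background on any array, with -6.29, -7.41 and -7.31 on the TGFb arrays. The untreated arrays had -7.23, -7.69 and -7.14 on that probe, so the call rests on 1 probe. Without scan day the call was lost under quantile normalization (adjusted p = 0.0626), normexp background correction (0.285) and a variance trend (0.0983), and over all alternatives its adjusted p ran from 0.000214 to 0.285. In the authors' deposited table of normalized log2 values, Cacnb2 was 0.50 higher in the TGFb columns (7.14, 7.16 and 7.26, against 6.76, 6.69 and 6.60 in the untreated columns). With normexp and without scan day the log2 difference was 0.59. Both are smaller than the 1.96-fold bound, which therefore holds only for the processing used here.

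Without a scan-day term, each of these 4 calls was lost in at least 5 of the 6 fits that leave out an array. Abcc9 and Scn10a were called by limma in 1 of them, the one without untreated 3, and Abcc8 and Cacnb2 in none. The difference in these fits was -2.75 to -2.53 for Abcc9, -2.57 to -2.36 for Scn10a and -2.29 to -2.00 for Abcc8. In the scan-day fit, Abcc9, Scn10a and Abcc8 were called in 6 of 6 such fits, and Cacnb2, Cacna1g and Scn3a in 5 of 6. The other 16 called genes passed in 1 or 2 of 6.

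Promoters are shown for the called genes with the clearest separation of the groups that the RefSeq table (GRCm38.p6) holds, so that the sequence before the transcription start can be read beside the expression. Each run is the 250 bases before an annotated start, 5′ to 3′ on the gene's strand. Capitals mark matches on either strand to CAGAC, the core of the SMAD-binding element through which TGFb acts, and to CANNTG, the E-box bound by myogenic factors. Abcc9 (chr6:142702275-142702524, minus strand), Scn10a (chr9:119719033-119719282, minus strand), Cacnb2 at both annotated starts (chr2:14604056-14604305 and chr2:14823842-14824091, plus strand) and Kcnn4 (chr7:24370013-24370262, plus strand) read as follows.
Abcc9: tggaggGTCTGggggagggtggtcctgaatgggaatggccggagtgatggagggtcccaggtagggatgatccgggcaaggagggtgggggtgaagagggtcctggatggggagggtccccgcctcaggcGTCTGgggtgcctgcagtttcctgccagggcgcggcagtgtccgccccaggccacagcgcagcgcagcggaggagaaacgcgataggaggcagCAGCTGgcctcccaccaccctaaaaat
Scn10a: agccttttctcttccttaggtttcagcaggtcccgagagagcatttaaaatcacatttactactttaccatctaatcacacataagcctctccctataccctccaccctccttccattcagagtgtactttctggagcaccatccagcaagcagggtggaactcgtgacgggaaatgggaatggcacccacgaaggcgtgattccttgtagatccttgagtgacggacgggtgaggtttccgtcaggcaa
Cacnb2, first start: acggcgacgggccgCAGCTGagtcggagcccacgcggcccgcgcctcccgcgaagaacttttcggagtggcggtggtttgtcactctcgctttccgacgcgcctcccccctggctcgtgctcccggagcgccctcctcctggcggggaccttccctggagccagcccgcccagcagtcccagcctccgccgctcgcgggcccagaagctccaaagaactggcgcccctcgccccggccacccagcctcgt
Cacnb2, second start: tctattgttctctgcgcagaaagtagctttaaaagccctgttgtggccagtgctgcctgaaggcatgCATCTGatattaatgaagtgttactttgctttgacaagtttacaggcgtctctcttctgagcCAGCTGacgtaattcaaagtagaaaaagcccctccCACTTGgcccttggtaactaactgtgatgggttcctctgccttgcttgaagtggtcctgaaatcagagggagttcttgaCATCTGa
Kcnn4: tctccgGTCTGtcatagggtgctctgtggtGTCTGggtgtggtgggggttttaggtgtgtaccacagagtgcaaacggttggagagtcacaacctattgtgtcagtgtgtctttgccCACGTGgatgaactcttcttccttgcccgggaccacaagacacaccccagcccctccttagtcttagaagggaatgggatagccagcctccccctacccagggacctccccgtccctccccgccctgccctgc

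The Abcc9 stretch held 2 CAGAC matches and 1 CANNTG match, and that of Kcnn4 held 2 and 1. The Cacnb2 starts held 1 and 4 CANNTG matches and no CAGAC match, and the Scn10a stretch held neither. None of the printed matches overlap between the motifs. Of the 22 called genes, 17 had an entry, with 25 promoters in all. CAGAC was found in 36% of these 25 and in 42.2% of all 32851 promoters of the same length, and CANNTG in 64% and 66.2%. A match describes letters in this window and is not a measured binding site.

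Among inwardly rectifying potassium channels, none of the 4 tested genes was called in either fit. Kcnj12, a channel of the muscle resting potential, had -1.70, -1.24 and -0.94 on the TGFb arrays, against -1.93, -1.82 and -0.77 on the untreated arrays. These ranges overlap, and the difference of 0.21 ± 0.42 (SE, n = 3 each; limma adjusted p = 0.854) was smaller than its error. Of the other inward rectifiers, Kcnj13 had a difference of 1.00 ± 0.40 (adjusted p = 0.416), with a second probe at -0.19, and Kcnj4 had one of 0.86 ± 0.52 (adjusted p = 0.628).

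Voltage-gated potassium channel genes moved in both directions. No gene of the 18 tested was called by limma without scan day, and with it 2 rose and 4 fell, with a median log2 difference of -0.28. Kcnc4 and Kcnc2, which encode fast voltage-gated channels, were the ones that rose. Kcnc2 had -2.98, -3.73 and -4.83 on the TGFb arrays, against -5.02, -5.04 and -5.71 on the untreated arrays, with no overlap. It rose by 1.74 ± 0.35 in the scan-day fit (limma adjusted p = 0.0387), and passed the background flag on 2 of 3 untreated arrays.

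Kcnc4 had -3.60, -1.62 and -1.06 on the TGFb arrays, against -5.57, -5.44 and -2.36 on the untreated arrays. The groups overlapped across days but not within a day, with differences of 1.90 on day 1 and 1.02 on day 2. It rose by 1.46 ± 0.28 in the scan-day fit (limma adjusted p = 0.0347), and passed the background flag on 2 of 3 untreated arrays. In the authors' deposited table, with group as the only term, Kcnc4 had a difference of 0.68 (limma adjusted p = 0.0555) and Kcnc2 of 0.62 (0.0768). Neither was called there. Their relative Kcnc1 fell by 0.96 ± 0.17 in the scan-day fit (adjusted p = 0.0267). Its other tested, dimmer probes gave -1.35 and -2.28 in that fit. The probe with -2.28 passed the background flag on all 3 untreated arrays and on no TGFb array. Without scan day its limma p was 0.0464, adjusted over all tested probes.

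Kcnq5 and Kcnq1 encode channels of slow, non-inactivating or cardiac repolarising currents, and Kcnh2 a channel of cardiac repolarisation. Kcnq5 had -4.70, -3.98 and -4.64 on the TGFb arrays, against -3.52, -3.34 and -2.74 on the untreated arrays, without overlap. Kcnq5 fell by 1.42 ± 0.23 in the scan-day fit (limma adjusted p = 0.0228). Kcnh2 had -1.64, -1.45 and -1.55 on the TGFb arrays, against -0.98, -0.73 and -0.66 on the untreated arrays, also without overlap. Kcnh2 fell by 0.81 ± 0.15 in the same fit (limma adjusted p = 0.0308). Kcnq1 had -5.81 and -4.32 on TGFb 1 and TGFb 2, with the TGFb 3 spot left out, against -4.54, -4.23 and -2.40 on the untreated arrays. It was well above background on 1 TGFb array and on all untreated arrays, and fell by 1.64 ± 0.22 in the scan-day fit (limma adjusted p = 0.0217, n = 2 and 3). With that spot kept, the same fit gave -1.05 (adjusted p = 0.402). In the authors' deposited table Kcnq1 had 7.41, 6.79 and 8.25 in the TGFb columns, against 7.85, 7.99 and 7.93 in the untreated columns, with TGFb 3 the highest of the 6, and was not called (limma adjusted p = 0.445, and 0.486 in the scan-day fit).

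Kcnf1, a modulatory subunit of voltage-gated potassium channels, was lower on all TGFb arrays without being called (-0.68 ± 0.31, limma adjusted p = 0.488, and -0.78 ± 0.24 in the scan-day fit, adjusted p = 0.107). Its dimmer second probe gave -1.09 in the scan-day fit, with a p of 0.0163 adjusted over all tested probes. Kcna7, a muscle potassium channel, had a difference of -1.50 ± 0.63 (adjusted p = 0.448), which came with a low value on TGFb 1 (-3.75, against -1.68 and -1.53 on TGFb 2 and 3) and with a second probe of opposite sign (0.12).

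The accessory subunits and calcium-activated channels also went both ways. Kcnmb4, an accessory subunit of the large-conductance calcium-activated channel, had -0.71, -1.33 and -2.01 on the TGFb arrays, against -2.96, -2.60 and -3.09 on the untreated arrays. Every TGFb array was above every untreated one, and Kcnmb4 rose by 1.75 ± 0.28 in the scan-day fit (limma adjusted p = 0.0217). The pore gene Kcnma1 had a difference of 0.46 ± 0.50 (adjusted p = 0.774) and 0.07 ± 0.15 with scan day. Kcnrg, a soluble regulator of potassium channels, had a difference of 0.96 ± 0.35 (adjusted p = 0.358), with a second probe of opposite sign (-0.26). Kcnab1, a cytoplasmic subunit of voltage-gated potassium channels, had -4.61 and 1.90 on TGFb 1 and TGFb 2, with the TGFb 3 spot left out, against -3.49, -3.31 and 3.48 on the untreated arrays. It fell by 1.37 ± 0.19 in the scan-day fit (limma adjusted p = 0.0222, n = 2 and 3), beside a gap of 6.70 log2 units between days. With that spot kept, the same fit gave -0.66 (adjusted p = 0.664). In the authors' deposited table Kcnab1 had 9.43, 10.26 and 13.19 in the TGFb columns, against 9.90, 10.04 and 11.77 in the untreated columns, again with TGFb 3 the highest. Its difference there was 0.39 (limma adjusted p = 0.838), and -0.29 in the scan-day fit (adjusted p = 0.842).

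Kcnn4, the intermediate-conductance calcium-activated potassium channel, had -0.01, 0.25 and 0.61 on the TGFb arrays, against -1.17, -1.32 and -1.18 on the untreated arrays. The untreated arrays were tightly grouped and all below the TGFb arrays. The difference was 1.50 ± 0.27 without scan day (limma adjusted p = 0.0732), and Kcnn4 rose by 1.42 ± 0.19 with it (adjusted p = 0.0123). Kcnn3, a small-conductance channel of the same family, had -0.01, 1.03 and 1.51 on the TGFb arrays, against 1.05, 0.98 and 2.48 on the untreated arrays. It fell by 1.11 ± 0.19 in the scan-day fit (limma adjusted p = 0.025), in the direction opposite to Kcnn4, and its second probe gave -1.58.

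Tandem-pore channels carry background potassium current. Of 6 tested, Kcnk13 fell in the scan-day fit, by 0.98 ± 0.14 (limma adjusted p = 0.0145), with values of 1.61, 1.05 and 1.03 on the TGFb arrays, against 2.71, 2.66 and 1.92 on the untreated arrays. Kcnk2, a mechanically gated channel, had -2.68, -2.94 and -2.67 on the TGFb arrays, against -3.70, -3.07 and -3.64 on the untreated arrays. These groups did not overlap, but the difference of 0.71 ± 0.29 was not called (adjusted p = 0.432, and 0.1 with scan day). Kcnk5 and Kcnk15 were well above background on the 3 arrays of day 1 and on no array of day 2, as were the voltage-gated potassium channel genes Kcna5 and Kcng2, so these 4 genes have no measured level on the second day.

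Sodium channel genes other than Scn10a were lower or not called. Scn3a, a pore gene of developing neurons, had -2.74, -1.81 and -1.67 on the TGFb arrays, against -1.35, -1.10 and 0.14 on the untreated arrays. Scn3a fell by 1.70 ± 0.17 in the scan-day fit (limma adjusted p = 0.00596), and its second probe gave -1.29. Scn4a, the sodium channel of adult skeletal muscle, had -2.06, -5.25 and -5.04 on the TGFb arrays, against -1.33, -1.34 and -3.35 on the untreated arrays. TGFb arrays lay below untreated arrays within each day (-0.72 on day 1 and -1.79 on day 2), and Scn4a fell by 1.26 ± 0.27 in the scan-day fit (adjusted p = 0.0481). It was well above background on 2 of 3 TGFb arrays. The pore gene Scn2a had a difference of 0.39 ± 0.16 in that fit (adjusted p = 0.2).

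Among calcium channel pores, the T-type genes Cacna1g and Cacna1h went in opposite directions in the scan-day fit. Cacna1i, another T-type gene, was not called in either fit. It had a difference of -0.255 ± 0.27 (limma adjusted p = 0.773), and of -0.234 ± 0.21 in the scan-day fit (0.534). The second Cacna1i probe gave 0.55 in the scan-day fit. Cacna1g had -0.58, -0.81 and -0.96 on the TGFb arrays, against -1.92, -1.91 and -2.44 on the untreated arrays. All TGFb arrays were above all untreated arrays, and Cacna1g rose by 1.45 ± 0.14 in the scan-day fit (limma adjusted p = 0.00583; 0.119 without it), with a second probe at 1.92. Cacna1h had 0.07, 0.81 and 1.02 on the TGFb arrays, against 0.93, 0.98 and 2.25 on the untreated arrays. The groups overlapped. Cacna1h fell by 1.11 ± 0.17 in the scan-day fit (limma adjusted p = 0.0196, and 0.644 without scan day), but its second probe had the opposite sign there (0.62). The difference between Cacna1g and Cacna1h was not tested.

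Auxiliary calcium channel subunits other than Cacnb2 were lower where they were called. Cacnb1, the beta subunit of the skeletal muscle channel, had 1.25, 0.14 and 0.58 on the TGFb arrays, against 3.00, 2.88 and 1.60 on the untreated arrays. Cacnb1 fell by 1.47 ± 0.20 in the scan-day fit (limma adjusted p = 0.014). Cacna2d1, the alpha2delta subunit of that channel, had 2.25, 3.04 and 2.60 on the TGFb arrays, against 3.51, 3.48 and 4.14 on the untreated arrays, and fell by 1.28 ± 0.18 (adjusted p = 0.0139). Its second probe gave -1.78. Cacng6, a gamma subunit of striated muscle, had -0.64, -0.09 and 0.47 on the TGFb arrays, against 1.32, 1.19 and 1.49 on the untreated arrays, and fell by 1.59 ± 0.24 (adjusted p = 0.0176). The groups did not overlap for any of these subunits. Cacna2d2, an alpha2delta subunit, had 0.49 ± 0.46 (adjusted p = 0.553). Cacnb3, another beta subunit, had a difference of -0.50 ± 0.40 without scan day (adjusted p = 0.726) and was not called in either fit.

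**Figure D3:**
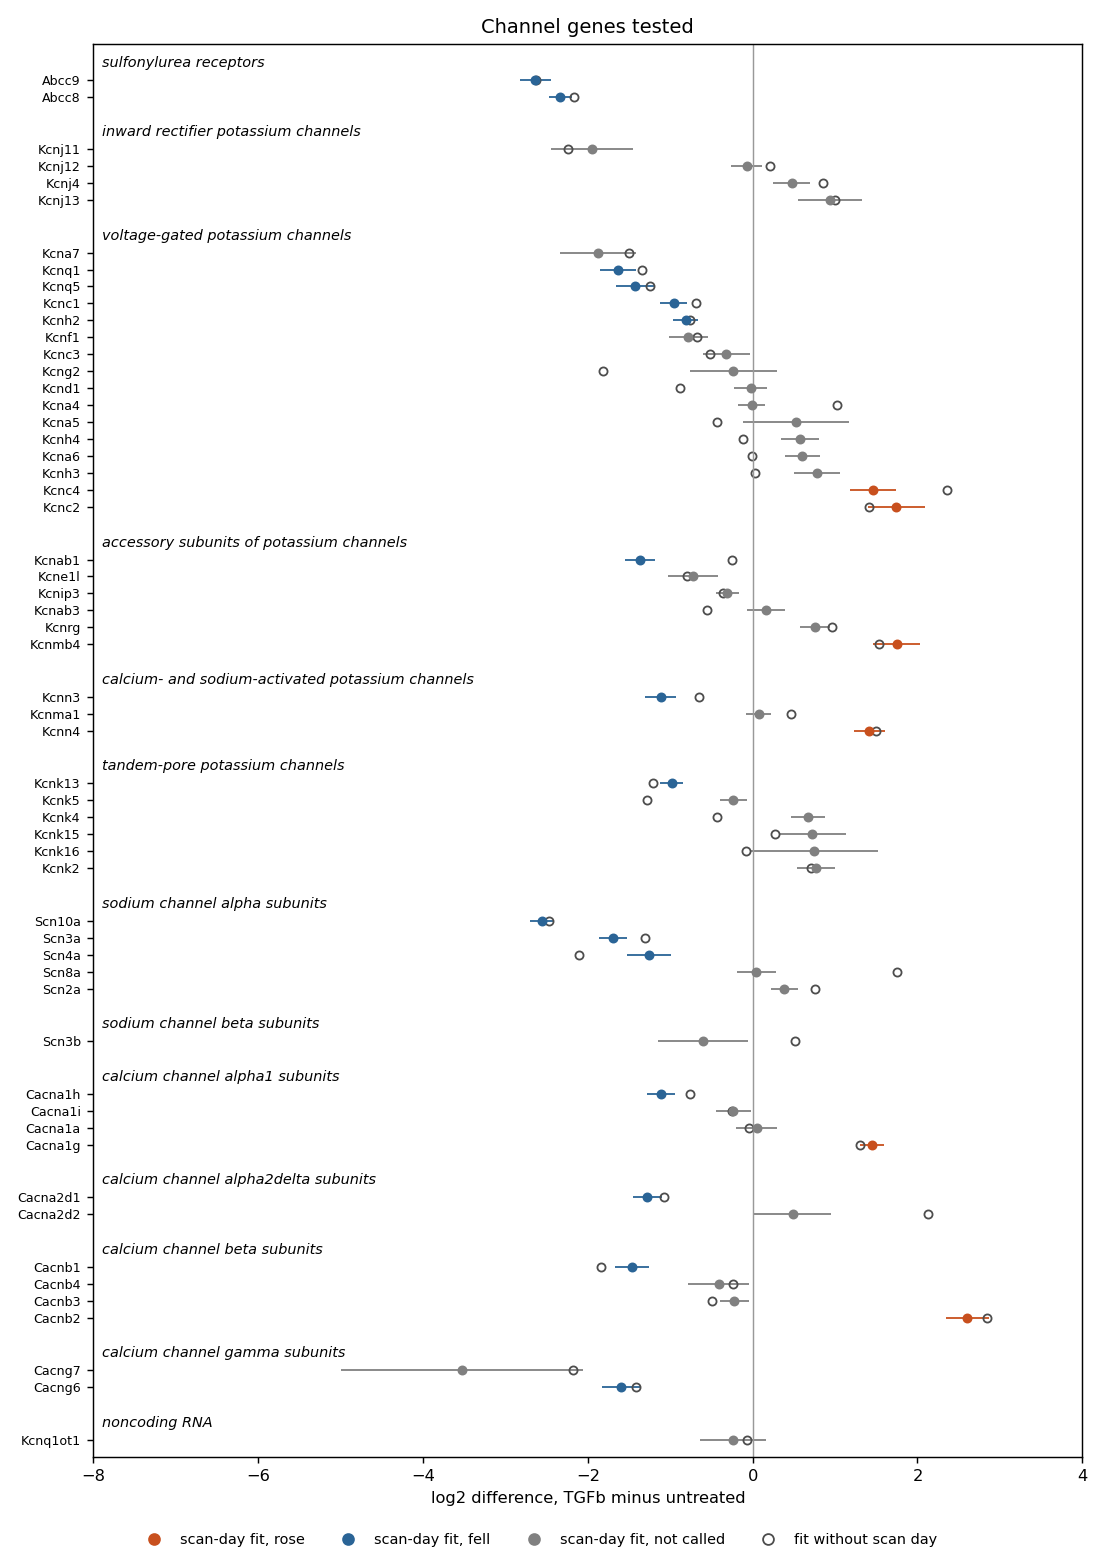
Log2 difference, TGFb minus untreated, for tested channel genes by class, with a few tested genes not drawn. Filled points with bars are the scan-day fit and its SE (orange, rose; blue, fell; grey, not called), and open points are the fit without scan day. Both sulfonylurea receptors lie below -2, while the voltage-gated potassium channel genes run from -1.87 for Kcna7 to 1.74 for Kcnc2.

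Over the 60 tested genes, the median log2 difference was -0.43 without scan day and -0.24 with it, against 0.05 and 0.04 over all tested genes. The groups did not overlap for 25 of the 60, of which 8 were higher and 17 lower after TGFb, while 18% of all tested genes did not overlap. The sign was the same within both scan days for 47 of 60 genes (78.33%), against 67.92% of all genes. The within-day differences were furthest apart in Cacng7, where 1 array stood alone: TGFb 1 had -4.34, against 2.95 and 3.21 on TGFb 2 and 3 and 2.45 to 3.24 on the untreated arrays.

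**Figure D4:**
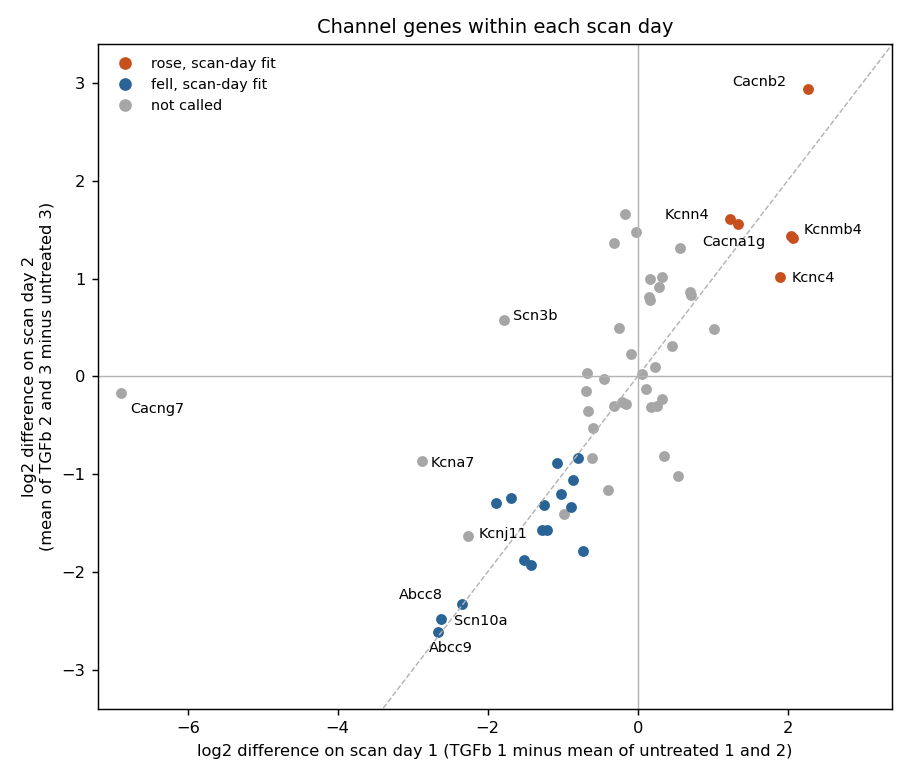
Log2 difference within scan day 1 (1 TGFb array, 2 untreated arrays) against that within scan day 2 (2 TGFb arrays, 1 untreated array) for the 60 tested channel genes, coloured by the call of the scan-day fit, with the line of equality dashed. Abcc9 (-2.66 and -2.62), Scn10a (-2.62 and -2.49) and Abcc8 (-2.34 and -2.33) lie on the line, and Cacng7 (-6.89 and -0.17) lies far from it.

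Many channel probes differed more between scan days than between groups. A difference of more than 2 log2 units between days was seen for 18 of 60 channel genes (30%) and for 12.38% of all tested genes. Scn8a, a widely expressed neuronal sodium channel gene, had 2.47, 7.21 and 7.93 on the TGFb arrays, against 2.51, 2.31 and 7.54 on the untreated arrays. The high arrays are those of day 2 in both groups, and within a day the difference was 0.06 and 0.02. Kcna4 showed the same arrangement, with 2.61, 5.46 and 5.76 on the TGFb arrays and 2.45, 2.55 and 5.74 on the untreated arrays.

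The deposited log2 table held much less of this gap. The median absolute difference between days over the channel genes was 0.926 in the scanner values and 0.255 in the authors' deposited table, and over all genes 0.784 and 0.142. Scn8a had 15.05, 15.21 and 15.66 in the TGFb columns of the authors' deposited table, against 15.30, 14.99 and 15.27 in the untreated columns. The sources used here do not name the normalization of that table. On its values, limma with group as the only term called 20 channel genes, of which 18 were also called in the scan-day fit to the scanner values, with the same sign. Over all genes it called 3285 on that table, against 308 in the scanner values without scan day and 2242 with it. The table and the scanner values come from the same arrays, so the shared calls are not independent evidence. In the authors' deposited table Abcc9 had a difference of -2.26 (adjusted p = 0.00064), Scn10a of -2.12 (0.000549) and Abcc8 of -2.02 (0.00027).

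**Figure D5:**
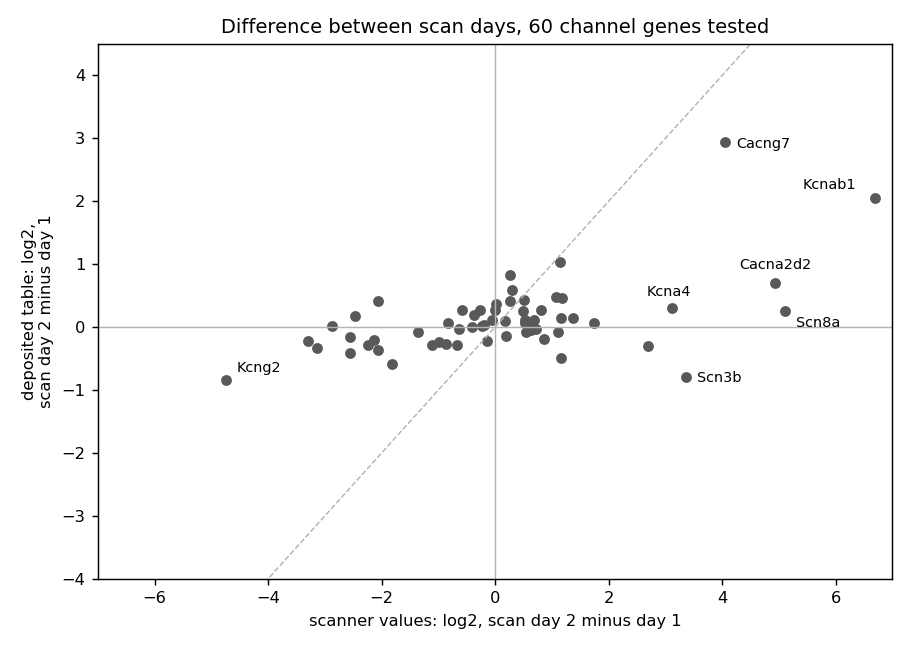
Difference between scan days (day 2 minus day 1, log2, averaged over the groups) for the 60 tested channel genes, in the scanner values on the horizontal axis and in the authors' deposited table on the vertical axis, with equality dashed. Scn8a moves by 5.11 in the scanner values and by 0.26 in the table, while Cacng7 keeps 2.93 of 4.06.

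The partners and modulators of these channels were followed as a separate list of 46 genes, of which 34 were tested. No gene of it was called by limma without scan day (10 at an unadjusted p under 0.05), and with it 4 rose and 9 fell, with a median log2 difference of -0.19. Dpp6, an auxiliary protein of fast-inactivating potassium channels, had -0.52, -0.92 and -0.97 on the TGFb arrays, against 0.82, 0.76 and 0.54 on the untreated arrays. Dpp6 fell by 1.40 ± 0.14 (limma adjusted p = 0.00562). Amigo1, a partner of delayed-rectifier potassium channels, fell by 1.25 ± 0.14, and Fgf13, which binds sodium channels, by 1.48 ± 0.22. Lrrc38, which modulates the large-conductance calcium-activated channel, fell by 1.88 ± 0.33.

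The sodium pump gene Atp1b2 and the store-operated calcium entry genes Orai1 and Stim1 were also lower in that fit. Atp1b2 had -1.69, -0.20 and -0.96 on the TGFb arrays, against 1.11, 1.29 and 3.51 on the untreated arrays, and fell by 3.49 ± 0.36 (limma adjusted p = 0.0062). Orai1 fell by 1.43 ± 0.16, Stim1 by 1.16 ± 0.17, and the ubiquitin ligase gene Nedd4l, which acts on sodium channels, by 0.90 ± 0.14. The genes that rose were Rem2, an inhibitor of calcium channels (2.08 ± 0.26), Stac, an adaptor of L-type channels (2.50 ± 0.39), Sgk1, a kinase that raises channel number at the membrane (1.02 ± 0.21), and the cation channel gene Pkd2 (0.97 ± 0.18).

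These changes stood beside a fall of muscle differentiation genes. Of 26 such genes tested, 7 fell by limma without scan day and 18 with it, and none rose in either fit (18 and 21 at an unadjusted p under 0.05). Their median log2 difference was -1.40, against -0.43 for the channel genes. Of 11 known TGFb response genes, 3 rose without scan day and 9 with it. The pericyte marker Rgs5 rose in the scan-day fit by 1.57 ± 0.23, Des fell by 1.28 ± 0.16, and Myh11 was not well above background on any array. The summed level of the 7 pericyte markers was 6.37 to 8.80 on the TGFb arrays and 6.50 to 8.55 on the untreated arrays. Of the fibroblast markers, Thy1 fell by 1.55 and Dcn fell by 2.57 in that fit, with Dcn well above background on 2 of 3 TGFb arrays. Cd34 had a difference of the other sign, 0.57 ± 0.17, and was not called (limma adjusted p = 0.103). Pdgfra (-0.32 ± 0.37) and Ly6a (-0.69 ± 0.18) were not called, and Dpt was not well above background on any array. The summed level of the 7 fibroblast markers was 1.47 to 2.39 on the TGFb arrays and 1.25 to 1.94 on the untreated arrays. Of 6 endothelial markers, 2 passed the background flag on all arrays and Tek, Emcn and Tie1 on none, and their summed level was -1.22 to 1.55 on the TGFb arrays and -1.60 to 1.66 on the untreated arrays. Of 6 immune markers, 3 passed on all arrays and Cd68 and Lyz2 on none, with a summed level of 4.02 to 6.86 on the TGFb arrays and 4.02 to 6.05 on the untreated arrays. The pericyte, immune and endothelial sums follow scan day as well as group. Day 2 minus day 1 was 3.42 for the pericyte marker Mcam, 2.43 for the immune marker Itgam and -3.20 for the endothelial marker Kdr. The part of these cell types and of muscle differentiation in the channel values was not tested.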

How the data were processed

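RNA of 3 TGFb-treated and 3 untreated myoblast samples was measured on 1-colour Agilent arrays. The authors deposited 1 scanner file per array. Per the file headers, its intensities were extracted and background-corrected with Agilent Feature Extraction 10.7.3.1, and probe positions are on mm9. Spots near background carry substitute values, which makes differences between dim probes uncertain. The authors also deposited a table of normalized log2 values (column medians 6.989 to 7.003), which rise with the scanner signal (r of 0.992 to 0.993 with the log2 mean signal of the own array). Its normalization and centring are not given in the sources used here, and it served as an alternative.

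Control spots and spots with an outlier flag (176 to 365 per array) were left out. Log2 intensity minus the array's 75th percentile was averaged over spots of a probe. Each gene was represented by its brightest probe well above background on at least 3 of 6 arrays. This left 21960 genes. Names were updated through RefSeq accessions (GRCm38.p6) for 26300 of 55681 probes, which changed 2839 names and 1 channel gene (Scn2a). Where a gene has several tested probes (21 channel genes), their signs differed in 5 with group as the only term and in 7 in the scan-day fit.

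TGFb minus untreated was fitted by lmFit and eBayes of limma 3.58.1 (R 4.3.3), with p-values adjusted by Benjamini-Hochberg over all tested genes at a threshold of 0.05. The fits had 4 residual degrees of freedom without scan day and 3 with it. P-values measure the spread between arrays that the labels call biological replicates. Without the scan-day term, this spread includes differences between scan days. Whether the untreated arrays that share a number in the scanner file names are separate cultures is not settled. The spread is therefore not a clean measure of the variation between independent cultures. The number of arrays limits the precision. Where every array of a group failed the well-above-background flag, the fold is given as a bound: each dim array entered at its probe's signal or, if higher, at the dimmest signal that passed the flag. The fit was tested on simulated data. Named genes are the members called in either fit, the 12 smallest p per direction without scan day, those above background in one group only, and a chosen list of 29. Kcnf1, Kcna7, Kcna4, Kcng2, Kcnk15, Scn8a, Cacng7 and Cacna1i were chosen after their values were seen. The members and lists were chosen with earlier results of these data known. A few genes that the naming rule or the lists hold are not reported here.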

Additional observations from a re-analysis of the deposited data

How the results depend on the processing

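Counts of calls depended on how scan day and slide were treated. With group as the only term, 4 channel genes were called. The authors' normalized table gave 20, scan day as a term 22, slide as a fixed block 11, slide as a random block 26, and fits without 1 array 0 to 2. TGFb 3 and untreated 1 were each alone on a slide. The difference with slide as a fixed block therefore rests on TGFb 1 with untreated 2 and TGFb 2 with untreated 3. With scan day as a term, 22 were called. Without that term there were 4, with slide as a fixed block in its place 11, with untreated 1 and 2 averaged (chosen after seeing the data) 6, and without 1 array 5 to 25. That averaging gave 0 channel genes and 0 genes in all without scan day (limma, 14 and 1460 at an unadjusted p under 0.05). The lowest counts without 1 array came without untreated 3 (5), untreated 1 or 2 (6 each) and TGFb 1 (7). Of all genes, the scan-day fit called 650 with untreated 1 and 2 averaged and 330 to 3343 without 1 array. Over all genes, 308 were called with group as the only term, against 3285 in the authors' table, 2242 with scan day, 776 with slide fixed, 4314 with slide random, and 0 to 195 without 1 array. The 0 to 2 channel genes and 0 to 195 genes compare with 14 to 20 and 1467 to 4094 at an unadjusted p under 0.05. Quantile normalization, normexp, other filters on dim probes, probe means, a variance trend and kept outlier spots (the last chosen after seeing the data) were also tried. They gave 3 to 5 channel genes without scan day and 16 to 25 with it. Over all genes they gave 246 to 397 and 1313 to 3187.

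The labels number the replicates of both groups alike, and deviations of same-numbered arrays correlated at 0.81, -0.72 and 0.69. The pair with the negative value was scanned on separate days and the others on a shared day, so these values cannot show whether the numbers pair cultures, and the arrays are taken to share only a number. A fit with this replicate block called 0 channel genes and 2 of all genes (21 and 2948 at an unadjusted p under 0.05 in limma), and the replicate block with scan day called 0 channel genes (27 at an unadjusted p under 0.05).

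The median log2 difference of the channel genes was -0.43. It was -0.24 with normexp, -0.18 in the authors' table, -0.24 with scan day, -0.18 with slide as a fixed block, and -0.62 to -0.29 without 1 array. With no filter on dim probes it was 0.077, over all probes including those near background, and the cause was not tested. The group-only call of Cacnb2 was lost under quantile normalization, normexp and a variance trend (adjusted p of 0.0626 to 0.285), and the scan-day calls of Kcnq1 and Kcnab1 with outlier spots kept (0.402 and 0.664).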
